A study of Mus musculus with 5 samples.

Results

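The BCL2 family genes described here are 10 regulators of mitochondrial cell death, 7 of the BH3-only class (Bmf, Bcl2l11, Bbc3, Pmaip1, Bad, Bid and Bik) and 3 anti-apoptotic genes (Mcl1, Bcl2 and Bcl2l1). They were matched by gene symbol, and all 10 were among the 29495 genes counted. They were chosen with the levels in IGF-1-treated and control libraries already known, so their values in that comparison are a description. Calls at a threshold are given for them as part of that description, and no exact p-value is printed.

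The RNA came from mouse glioma cells of the genotype p53-/-;NF1-/-;tdTomato+/-, which arose in a tumor model with CD-1 and C57BL/6 in its mixed background. They shared their dish with neurons cultured from the olfactory bulbs of C57BL/6 pups and were then sorted by flow cytometry on tdTomato, a red fluorescent protein. The IGF-1 group (3 libraries, replicates 3, 4 and 5) received 20 ng/mL of insulin-like growth factor 1 overnight, and the control group (2 libraries, replicates 1 and 2) was co-cultured without it. Both groups lack p53 and NF1, both carry tdTomato, and the neuronal plating medium held insulin and serum. Whether insulin-like signals from that medium reached the glioma cells of either group was not tested. All titles carry the same code, and the labels do not say whether the libraries came from separate cultures or tumors, so their spread may be technical.

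Proteins of the BCL2 family decide whether the outer mitochondrial membrane becomes permeable, the step that releases cytochrome c and starts caspase activation. Anti-apoptotic members hold the pore-forming proteins BAX and BAK in check, and BH3-only proteins act upstream by binding the anti-apoptotic members, or BAX and BAK directly, through a short helix called the BH3 domain. Growth factor signals through AKT and ERK are known to oppose several BH3-only proteins, for instance through FOXO transcription factors, which can activate Bcl2l11 and Bbc3, and through phosphorylation of BAD, which cannot be seen in RNA.

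The stretch that gives the BH3-only class its name is shown here in the coding sequence of 9 of the 10 genes. Pmaip1 also held the pattern marked in these lines, at 2 places, but its sequence is not shown. The lines below show 45 bases of the coding strand, 5′ to 3′, from GENCODE M21 principal transcripts (build GRCm38). Capitals mark a leucine codon and, after 3 further codons, a codon for glycine, alanine or serine followed by one for aspartate.
Bmf: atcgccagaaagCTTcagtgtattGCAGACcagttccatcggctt
Bcl2l11: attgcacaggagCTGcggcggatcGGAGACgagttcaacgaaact
Bbc3: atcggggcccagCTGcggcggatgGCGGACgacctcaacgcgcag
Bad: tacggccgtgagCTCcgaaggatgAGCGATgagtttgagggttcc
Bid: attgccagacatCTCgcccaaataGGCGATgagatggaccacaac
Bik: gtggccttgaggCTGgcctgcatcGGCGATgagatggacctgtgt
Mcl1: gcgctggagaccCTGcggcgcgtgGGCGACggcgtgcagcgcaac
Bcl2: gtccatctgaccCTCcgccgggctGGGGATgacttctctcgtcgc
Bcl2l1: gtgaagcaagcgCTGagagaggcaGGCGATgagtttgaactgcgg

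Each of these 9 genes held the pattern once, and it also occurred in 32.7% of 22500 principal protein-coding sequences, so the pattern alone does not mark a BH3 domain. The codon before the aspartate reads alanine in Bmf and Bbc3, serine in Bad and glycine in the other 6. The leucine is residue 224 of 271 in Bmf, 150 of 196 in Bcl2l11, 141 of 193 in Bbc3, 151 of 204 in Bad, 90 of 195 in Bid and 55 of 150 in Bik. It is residue 194 of 331 in Mcl1, 94 of 236 in Bcl2 and 90 of 233 in Bcl2l1. In the anti-apoptotic proteins the BH3 helix forms part of the groove that receives the BH3 helix of a partner.

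Libraries held 16944315 to 20144181 counts. IGF-1 replicate 5 stood apart, at 33.2 on the first principal component (35.2% of variance) against -19.2 to 1.96 for the other 4 libraries. On the second component (26.1%) it lay at 14, near the controls at 11.4 and 13.5. IGF-1 replicates 3 and 4 lay there at -17.8 and -21.1. The fitted changes and list medians below are therefore also given without replicate 5, where a gene passed the filter in that fit. Progenitor markers were abundant in every library (Olig1, Olig2, Sox10, Pdgfra, Cspg4, Ptprz1 and Nkx2-2 summed to 3790 to 4260 CPM (counts per library, scaled to the same total) with IGF-1 and 3600 to 3730 CPM in controls). Neuronal markers summed to 10.4 to 17.2 CPM over the 8 genes found with IGF-1, the highest in replicate 5, and to 9.21 to 9.81 CPM in controls. Most of this came from Syt1, at 81 to 232 counts per library (mean 6.46 CPM). Dcx and Gad1 averaged 1.66 and 1.45 CPM. The other 5 of the 8 averaged under 1 CPM, with the neuronal nuclear gene Rbfox3 at 0 to 1 counts. Microglial markers summed to under 1 CPM in each library, and endothelial ones to 0.685 to 1.48 CPM with IGF-1 and 1.18 to 1.21 CPM in controls. Astrocyte markers, mostly Slc1a2, summed to 82.1 to 106 CPM with IGF-1 and 88.3 to 93.2 CPM in controls. The part of other cells in the values that follow was not tested.

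With IGF-1, the BH3-only gene Bmf fell to 0.49 times its mean control level, while the anti-apoptotic genes Mcl1 and Bcl2l1 rose to 1.29 and 1.25 times theirs. Of the 9 genes that passed the filter on low counts, the quasi-likelihood test of edgeR, adjusted by Benjamini-Hochberg over all 15919 genes tested, called 2 higher and 1 lower (adjusted p under 0.05). Over all genes tested, 0.685% were called higher and 0.339% lower, and since the genes were chosen from this same contrast nothing is read from their count. The values of IGF-1 and control libraries did not overlap in 6 of the 9 genes, 3 higher (Mcl1, Bcl2l1 and Bid) and 3 lower (Bmf, Bbc3 and Bad). Over all genes tested, 16.2% were higher and 16.9% lower without overlap. In bulk RNA, fewer cells that express a gene and less of its RNA per cell cannot be told apart.

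**Figure D1:**
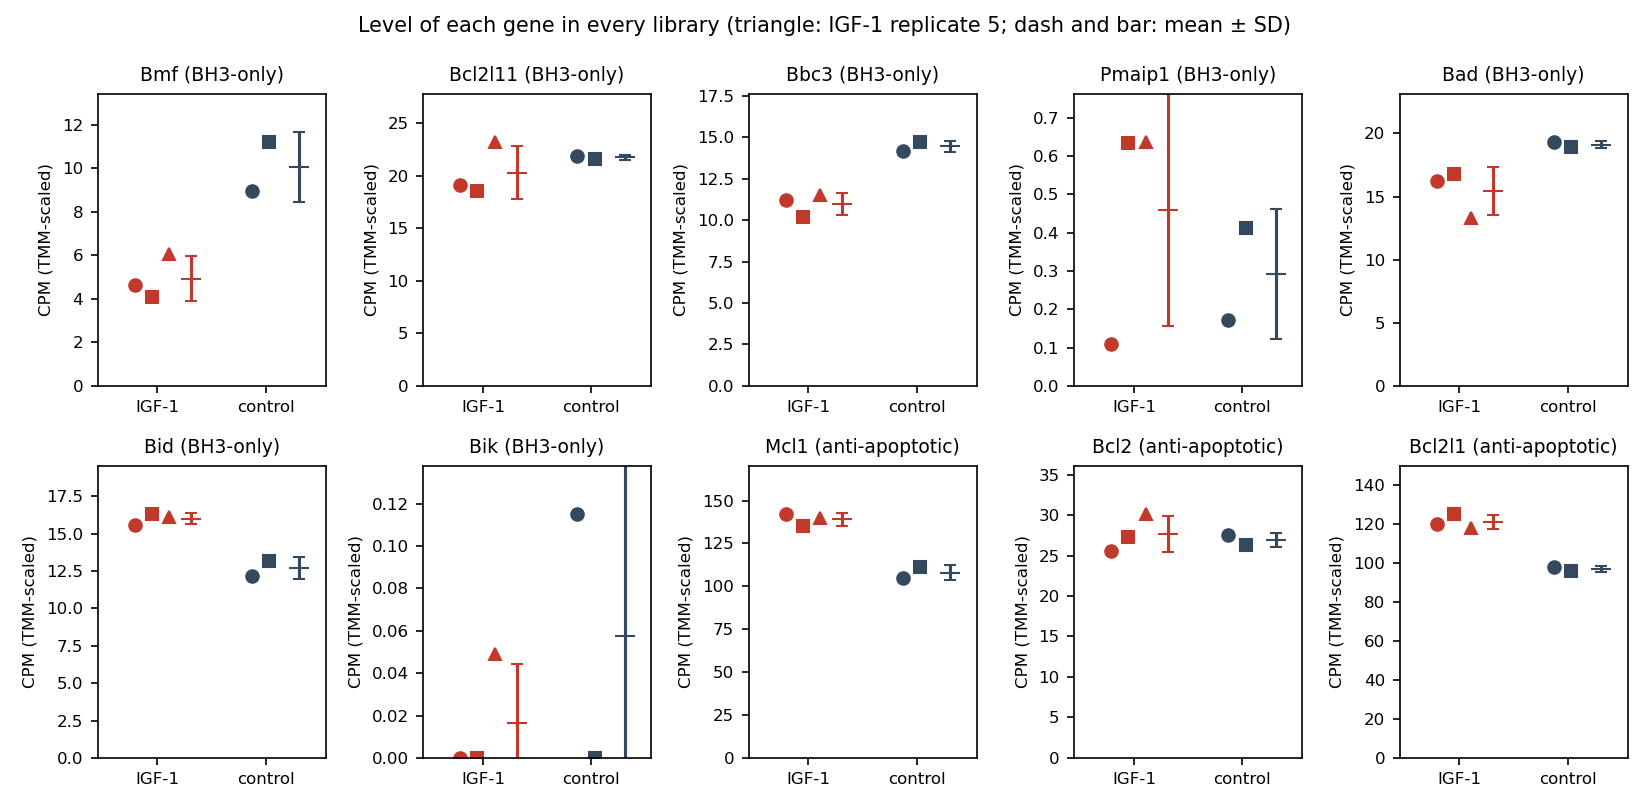
Level of each of the 10 genes in CPM (linear axes that start at 0), with IGF-1 libraries at left and control libraries at right; symbols are single libraries, and the dash with its bar is the mean ± SD (n = 3 and n = 2). The 3 IGF-1 libraries lie below both controls for Bmf, Bbc3 and Bad, and above both for Bid, Mcl1 and Bcl2l1.

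Bmf encodes a BH3-only protein that is held on the actin-linked myosin V motor through the light chain DYNLL2 and is released when cells lose attachment. It had 84, 77 and 124 counts in IGF-1 replicates 3, 4 and 5, which is 4.63, 4.08 and 6.07 CPM, against 155 and 189 counts, or 8.94 and 11.2 CPM, in control replicates 1 and 2. Each IGF-1 library lay below both controls, and replicate 5 lay nearest to them. The mean was 4.92 ± 1.03 CPM with IGF-1 (SD, n = 3) and 10.0 ± 1.56 CPM in controls (SD, n = 2), a fitted log2 fold change of -1.02 (SE 0.19). Without IGF-1 replicate 5 it was -1.21 (SE 0.17). Counting error alone gave Bmf exact Poisson 95% intervals of 3.69 to 5.73, 3.22 to 5.1 and 5.05 to 7.24 CPM in the IGF-1 libraries, and of 7.59 to 10.5 and 9.62 to 12.9 CPM in the controls. The upper bound in replicate 5 was below the lower bound in control replicate 1, but these intervals leave out variation between libraries. Bmf was chosen with these values known, so this is a description only. By log2 change, Bmf was number 100 from the lowest of the 15919 genes tested.

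Bbc3 encodes PUMA, a strong BH3-only killer best known as a p53 target, although FOXO3 can also activate it. It stood at 11.2, 10.2 and 11.5 CPM in IGF-1 replicates 3, 4 and 5, and at 14.2 and 14.7 CPM in the controls. All IGF-1 values lay below both controls, and the gene was not called with all libraries (log2 fold change -0.40, SE 0.12). Without IGF-1 replicate 5 the log2 fold change was -0.43 (SE 0.13), and Bbc3 was then called lower. The genotype of both groups lacks p53, and Bbc3 was read at 193 to 249 counts in every library.

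Bcl2l11 encodes BIM, a broadly acting BH3-only protein that FOXO3 can activate and ERK can mark for degradation. It stood at 19.1, 18.6 and 23.2 CPM with IGF-1 against 21.9 and 21.6 CPM in the controls. Replicates 3 and 4 lay below the controls and replicate 5 above them, so the groups overlapped. The log2 fold change was -0.10 (SE 0.12) with all libraries and -0.21 (SE 0.10) without replicate 5, and neither was called. Gene counts do not separate the BIM isoforms.

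Bad encodes the BH3-only protein that AKT phosphorylates and 14-3-3 proteins then hold in the cytosol. Its levels were 16.2, 16.8 and 13.3 CPM with IGF-1 and 19.3 and 18.9 CPM in the controls, with replicate 5 farthest from the controls. The log2 fold change was -0.31 (SE 0.12), or -0.21 (SE 0.11) without replicate 5, and Bad was not called in either fit. In the GENCODE M21 models, 524 exon bases of Bad lie opposite exons of Gpr137. The sources used here do not say whether counting used strand, so reads there cannot be told apart. Gpr137 averaged 11.7 ± 0.557 CPM with IGF-1 (SD, n = 3) and 11.7 ± 0.641 CPM in controls (SD, n = 2).

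Bid is cut by caspase-8 and carries the death receptor signal to mitochondria. Among the 7 BH3-only genes described here, Bid alone stood above 1 CPM with a higher mean with IGF-1. It was at 15.6, 16.3 and 16.1 CPM against 12.2 and 13.2 CPM in the controls. The IGF-1 values lay close together and above both controls, but the gene was not called, with a log2 fold change of 0.33 (SE 0.11) and of 0.32 (SE 0.12) without replicate 5. Exons of Bid lie opposite exons of Bcl2l13 over 628 bases in the GENCODE M21 models, and Bcl2l13 averaged 132 ± 5.98 CPM with IGF-1 (SD, n = 3) against 123 ± 3.13 CPM in controls (SD, n = 2).

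The remaining BH3-only genes among the 10 were near the limit of detection. Pmaip1, the gene of the p53 target NOXA, which acts mainly against MCL1, had 2, 12 and 13 counts with IGF-1 and 3 and 7 counts in the controls. These values overlapped, and the log2 fold change was 0.66 (SE 0.75), not called. Bik had 0, 0 and 1 counts with IGF-1 and 2 and 0 in the controls and did not pass the filter. A count of 0 allows up to 0.165 CPM in IGF-1 replicate 3, 0.159 CPM in IGF-1 replicate 4 and 0.177 CPM in control replicate 2 (3 counts per library). No fold change is given for Bik.

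Among the anti-apoptotic genes, Mcl1, which encodes a short-lived protein that holds BAK and BIM, rose to 142, 135 and 140 CPM in IGF-1 replicates 3, 4 and 5, against 105 and 111 CPM in the controls. The mean was 139 ± 3.73 CPM with IGF-1 (SD, n = 3) and 108 ± 3.61 CPM in controls (SD, n = 2). The gap between the groups exceeded the range within either one, and the log2 fold change was 0.36 (SE 0.06) with all libraries and 0.36 (SE 0.05) without replicate 5. Bcl2l1, which encodes BCL-XL, rose to 120, 125 and 118 CPM, against 97.8 and 95.8 CPM in the controls. Its means were 121 ± 3.47 CPM with IGF-1 (SD, n = 3) and 96.8 ± 1.44 CPM in controls (SD, n = 2), a log2 fold change of 0.32 (SE 0.06), or 0.34 (SE 0.05) without replicate 5. Gene counts do not separate BCL-XL from the pro-apoptotic splice form BCL-XS, nor long from short forms of MCL1.

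Bcl2, the founding member of the family, was not called. It stood at 25.6, 27.3 and 30.1 CPM with IGF-1 and at 27.5 and 26.3 CPM in the controls, and the controls lay within the IGF-1 range. Its log2 fold change was 0.04 (SE 0.10) with all libraries and -0.02 (SE 0.09) without replicate 5. Replicate 5 held 1.14 times the mean Bcl2 level of replicates 3 and 4, and 1.39 times that of Bmf and 1.23 times that of Bcl2l11. For Mcl1, Bcl2l1 and Bid the same ratio was between 0.966 and 1.01, so the library that stood apart was close to the other IGF-1 libraries in these genes.

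**Figure D2:**
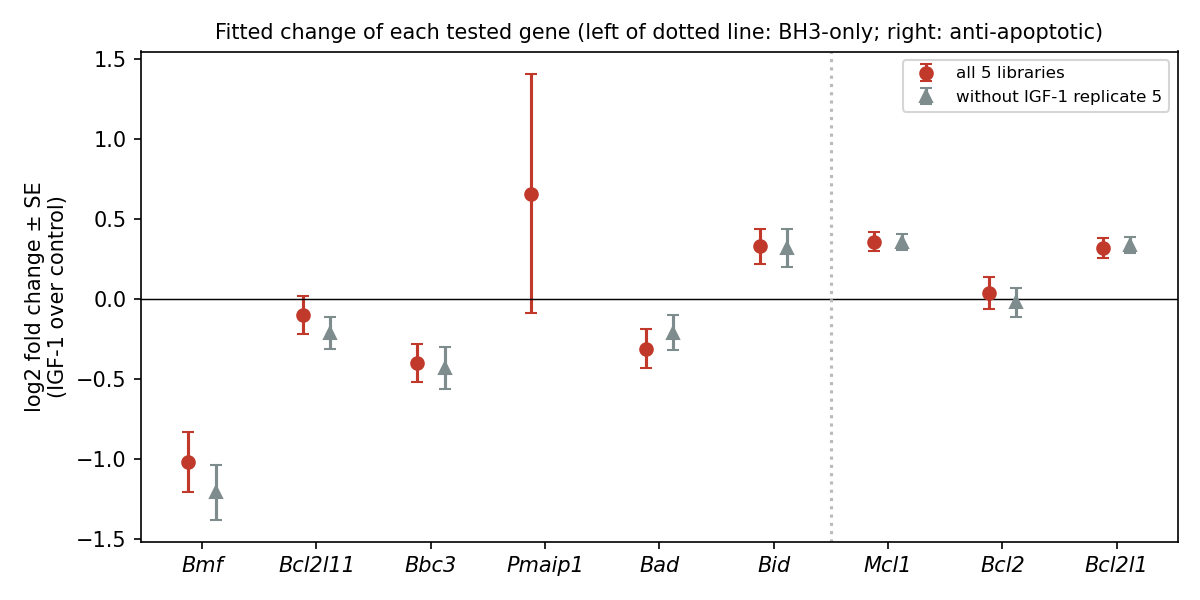
Fitted log2 fold change (IGF-1 over control) with its SE for the 9 genes that passed the filter, with all 5 libraries (circles) and without IGF-1 replicate 5 (triangles; Pmaip1 did not pass the filter there). Bmf lies at -1.02 and -1.21, and Mcl1 and Bcl2l1 lie between 0.32 and 0.36.

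The calls differed with the library left out. Mcl1, Bcl2l1 and Bmf were also called by DESeq2 and by limma-voom with all libraries. Over all genes, DESeq2 called 180 higher and 75 lower, and limma-voom 83 and 49. Without IGF-1 replicate 5, 2 genes were called higher (Mcl1 and Bcl2l1) and 2 lower (Bmf and Bbc3), when 5.49% of 15573 genes were called higher and 3.65% lower. Leaving out IGF-1 replicate 3 or IGF-1 replicate 4 left 0 of the 10 genes called by edgeR in either direction. Over all genes, edgeR then called 29 higher and 9 lower without replicate 3, and 35 and 18 without replicate 4. With all libraries it called 109 and 54, so most calls over all genes were lost too, and nothing is read from the 0. Without adjustment, 3 of the 10 genes were higher and 3 lower by edgeR at p under 0.05 in both fits, and nothing is read from these counts. Over all genes tested in the same fits, 6.46% to 6.52% were higher and 4.95% to 5.09% lower without adjustment. Leaving out control replicate 1 or control replicate 2 leaves 1 control library, so only log2 fold changes are given here for those fits. No other tool was run without any of these libraries. With either control or either of IGF-1 replicates 3 and 4 left out, the log2 fold change of Bmf lay between -1.17 and -0.86. It lay between 0.33 and 0.40 for Mcl1 and between 0.30 and 0.34 for Bcl2l1.

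Levels can be compared between genes only per length, here as CPM per kilobase of exon in the GENCODE M21 models. With IGF-1 the order was Mcl1 (40.6 ± 1.09 CPM per kilobase, SD, n = 3), Bcl2l1 (26.4 ± 0.757), Bad (6.03 ± 0.737), Bbc3 (5.16 ± 0.31), Bid (4.51 ± 0.101), Bcl2 (3.02 ± 0.247), Bcl2l11 (2.53 ± 0.312), Bmf (0.937 ± 0.196), Pmaip1 and Bik. The order was the same in the controls, from 31.6 ± 1.06 for Mcl1 and 21.1 ± 0.314 for Bcl2l1 to 1.91 ± 0.297 for Bmf (SD, n = 2). In the IGF-1 libraries Bad overlapped Bbc3, and Bcl2 overlapped Bcl2l11, while in the controls the only neighbours to overlap were Pmaip1 and Bik. MCL1 and BCL-XL transcripts were thus the most abundant of the 10 in both groups, and Bmf was the least abundant of the genes above 1 CPM. The exon lengths cover all annotated forms, so genes with long untranslated ends are placed lower by this scale.

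Summed per kilobase, the 3 anti-apoptotic genes reached 70.5, 69.7 and 69.9 in IGF-1 replicates 3, 4 and 5, against 55.2 and 56.1 in the controls. The 7 BH3-only genes summed to 19.3, 19.3 and 19.4 per kilobase with IGF-1, against 22.3 and 23.0 in the controls. The ratio of the first sum to the second was 3.65, 3.61 and 3.6 with IGF-1 and 2.48 and 2.44 in the controls. Replicate 5 lay with the other IGF-1 libraries in this ratio, although it lay closer to the controls in Bmf. The genes were chosen with this contrast known, so nothing is read from the lack of overlap. The sums do not cover the whole family. Bcl2l2 and Hrk, left out of them, averaged 7.45 and 2.62 CPM per kilobase with IGF-1, and 7.11 and 2.45 in the controls. Bmf made up 4.56%, 4.03% and 5.94% of the BH3-only sum per kilobase with IGF-1, and 7.65% and 9.23% in the controls. RNA levels do not give protein levels, which for MCL1 and BIM depend strongly on degradation.

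**Figure D3:**
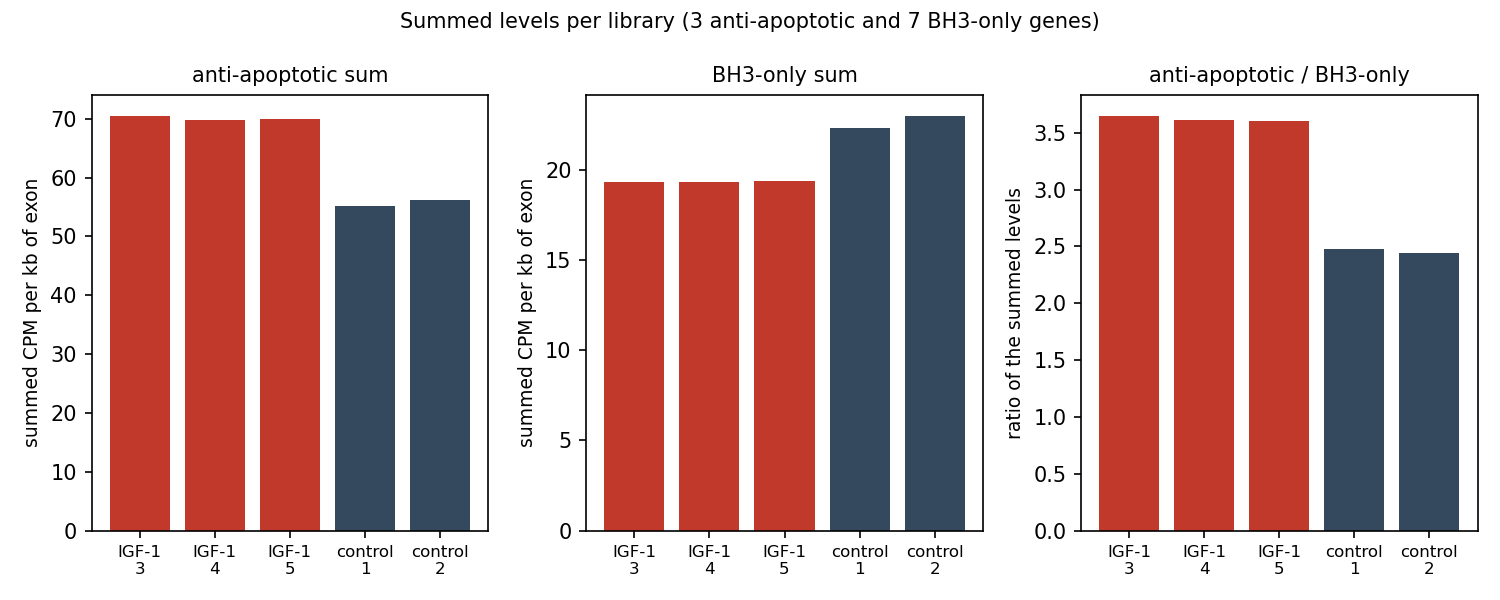
Summed levels per library in CPM per kilobase of exon for the 3 anti-apoptotic genes (left) and the 7 BH3-only genes (middle), and their ratio (right), with IGF-1 libraries left of controls and bars that start at 0. The ratio is 3.6 to 3.65 with IGF-1 and 2.44 to 2.48 in the controls.

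Promoter windows were searched for the FOXO core motif GTAAACA on both strands, because FOXO factors can activate Bcl2l11 and Bbc3. RefSeq windows from 250 bases before to 50 bases after a start (build GRCm38.p6) were at hand for 8 of the 10 genes, 16 windows in all, and 2 held a match. Among all 32851 windows 3.65% held one. The matches are shown in capitals, 5′ to 3′ on the coding strand, in Bcl2l11 (chr2:128125788-128125842, plus strand, 227 bases before the start) and in Bbc3 (chr7:16310069-16310125, plus strand, 167 bases before a start, in reverse orientation).
Bcl2l11: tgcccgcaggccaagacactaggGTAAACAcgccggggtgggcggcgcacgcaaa
Bbc3: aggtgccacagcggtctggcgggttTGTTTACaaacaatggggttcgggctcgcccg

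The 3 windows of Bmf held no match to these letters. A match, or the lack of one, describes only the sequence of these windows and is no sign of binding or its absence in these cells. Of the 2 genes with a match, Bbc3 was lower with IGF-1 without overlap and Bcl2l11 overlapped its controls. A part of FOXO factors in any of these changes was not tested.

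The genes that BCL2 proteins act on, and those that act on them, gave 0 calls with all libraries. Of 81 genes in 4 lists, 79 were found by symbol and 70 were tested, and edgeR called 0 higher and 0 lower. Without adjustment, 5 were higher and 6 lower at p under 0.05 (over all genes tested, 7.1% were higher and 5.57% lower), DESeq2 called 1 higher and 0 lower, and limma-voom called 0 in either direction. The gene that DESeq2 called was Ywhag, a 14-3-3 protein gene, at 290 ± 2.73 CPM with IGF-1 (SD, n = 3) and 240 ± 6.61 CPM in controls (SD, n = 2), with a log2 fold change of 0.28 (SE 0.06) and an adjusted p of 0.0669 by edgeR. Without IGF-1 replicate 5, 6 of the 70 were called higher and 6 lower, when 5.49% of 15573 genes were called higher and 3.65% lower.

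The list of other BCL2 family genes also holds Bclaf1, the gene of a BCL2-associated factor that is not a family member. The median log2 change of this list was -0.1 over 11 tested genes, against -0.008 over all genes. Without replicate 5 these medians were -0.168 and -0.006. The pore-forming effectors Bax and Bak1 were not called. Bax stood at 34.5 ± 2.71 CPM with IGF-1 (SD, n = 3) and 40.3 ± 0.473 CPM in controls (SD, n = 2), without overlap (log2 -0.23, SE 0.09, edgeR adjusted p = 0.327), and had a log2 change of -0.17 without replicate 5. Bak1 stood at 53.7 ± 6.52 CPM with IGF-1 (SD, n = 3) and 55.9 ± 0.925 CPM in controls (SD, n = 2), with overlap (log2 -0.06, SE 0.10), and turned to 0.03 without replicate 5. The most abundant of the list, Bclaf1 and Bcl2l13, had log2 changes of -0.04 and 0.10, and of -0.02 and 0.07 without replicate 5. Bnip3l, a mitophagy receptor gene, was called lower without replicate 5 (log2 -0.26, edgeR adjusted p = 1.45e-04), with an adjusted p of 0.545 when replicate 5 was kept.

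The mitochondrial death machinery downstream had a median of -0.067 over 18 tested genes, and of -0.026 without replicate 5. Apaf1, the scaffold of the apoptosome, had a mean of 38.7 CPM in both groups (SD 1.5 with IGF-1, n = 3, and 0.200 in controls, n = 2), and a log2 change of -0.00, or -0.03 without replicate 5. Vdac1, a channel of the outer membrane, and Birc6, an inhibitor of apoptosis, were the most abundant, at -0.06 and 0.01, and at -0.00 and 0.05 without replicate 5. Casp2 (-0.20) and Birc2 (-0.32) were called lower without replicate 5. Death receptor genes had a median of 0.071 over 11 tested genes, and of 0.044 without replicate 5. Their most abundant members, the TNF receptor gene Tnfrsf1a and the receptor gene Tnfrsf21, had log2 changes of 0.17 and 0.19. Without replicate 5, Tnfrsf1a was called higher (0.20), and Tnfrsf21 stood at 0.08, not called.

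Regulators of BCL2 proteins had a median of 0.031 over 30 tested genes, with and without replicate 5. Foxo1 stood at 15.1 ± 3.37 CPM with IGF-1 (SD, n = 3) and 14.7 ± 2.66 CPM in controls (SD, n = 2), and its groups overlapped. Its log2 change was 0.05 with all libraries and -0.14 without replicate 5. Foxo3 had a log2 change of -0.19 (SE 0.10, edgeR adjusted p = 0.47), which was -0.29 and called lower without replicate 5 (edgeR adjusted p = 8.56e-05). Dynll1 and Dynll2, the dynein light chain genes whose proteins bind BIM and BMF, each had a log2 change of -0.09 (SE 0.08), and of -0.01 and -0.03 without replicate 5. The ubiquitin ligase gene Huwe1, which targets MCL1, and the 14-3-3 gene Ywhae were the most abundant, at 0.04 and -0.07, and at 0.04 and 0.00 without replicate 5. Without replicate 5, Ywhag (0.28), Ywhah (0.20), Ywhaz (0.12), Akt1 (0.15) and the co-chaperone gene Bag3 (0.63) were called higher, and besides Foxo3 the kinase genes Pim1 (-0.43) and Pim3 (-0.20) lower. The genes named for their calls without replicate 5 were chosen after their values were seen.

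**Figure D4:**
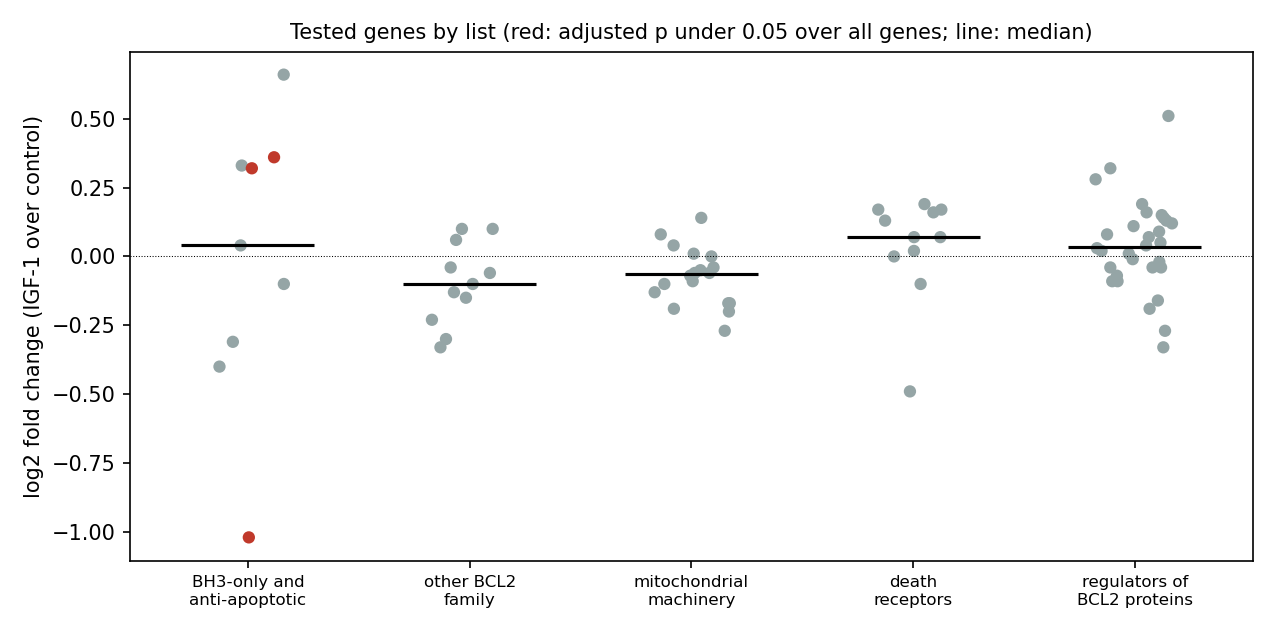
Fitted log2 fold change (IGF-1 over control, all 5 libraries) of every tested gene of the 10 described here and of the 4 lists of other apoptosis genes; points are genes, lines are medians, and red marks an adjusted p under 0.05 over all genes. The 3 red points are Mcl1, Bcl2l1 and Bmf, and the 4 lists hold 0.

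The genes whose pattern over the 5 libraries was most like that of Bmf were found by the Euclidean distance between log2 CPM centred on each gene's mean. The nearest were Pax9 (distance 0.262), Cd274 (0.310), Mmp23 (0.374), Slitrk6 (0.385) and Gxylt2 (0.424). Each had lower values in every IGF-1 library than in either control, as follows from the choice by likeness. Pax9 averaged 2.86 ± 0.701 CPM with IGF-1 (SD, n = 3) and 5.05 ± 0.616 CPM in controls (SD, n = 2), and Slitrk6 averaged 2.09 ± 0.322 CPM with IGF-1 and 5.14 ± 0.659 CPM in controls. All 5 were expressed below Bmf, so counting error has a larger part in their patterns.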

How the data were processed

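Polyadenylated RNA was sequenced from 5 libraries. The deposited values are raw counts per gene symbol, 1 table per library. The tools, per the submitters' processing notes, were STAR 2.7.9a, cutadapt 3.4, DESeq2 1.28.1 and featureCounts 2.0.1 with build GRCm39, and their settings, the annotation and strand use are not given in the sources used here. Groups came from the titles.

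The main analysis used edgeR 4.0.16 (R 4.3.3): filterByExpr (minimum count 10, minimum total count 15), TMM factors, and the two-sided quasi-likelihood test of 3 IGF-1 against 2 control libraries, adjusted by Benjamini-Hochberg over 15919 genes with a threshold of 0.05. The SE is the log2 fold change divided by the root of F. CPM are TMM-scaled. Replicate pairs differed by more than sampling noise (chi-square per degree of freedom 2.29 to 13.5), so each library counts once. Intervals and floors cover counting error only. Exon lengths came from GENCODE M21 (GRCm38), and 97.5% of tested genes had one under the same symbol.

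The genes and lists were chosen with earlier results of these data known. All 10 genes are named whatever their result. Of each list, called genes or else the 2 most abundant are named, with regulators and effectors fixed by name (Bax, Bak1, Apaf1, Foxo1, Foxo3, Dynll1, Dynll2 and a gene that is not reported here) and the 5 genes nearest to Bmf. Alternatives were RLE factors, total counts, no filter, DESeq2 1.42.0, limma-voom (limma 3.58.1), each library left out and, added after seeing the data, DESeq2 without IGF-1 replicate 5. On simulated counts for all 5 libraries, the test recovered 54 of 100 changes of 1.5-fold and 79 of 100 of 2-fold, among 15568 genes, with 8 false calls in that run. No simulated library was made to stand apart as IGF-1 replicate 5 did, so these figures may not hold for the measured counts.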

Additional observations from a re-analysis of the deposited data

How the results depend on the processing

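Mcl1, Bcl2l1 and Bmf kept their direction in all 11 alternatives and were each called in 7 of them. They were chosen from this contrast and their groups did not overlap. Leaving out a library could therefore not reverse them, and nothing is read from the kept direction. Among the 10, 2 genes were called higher and 1 lower with RLE factors, total counts, no filter, DESeq2 and limma-voom, as in the main fit. Over all genes, 109 were called higher and 53 lower with RLE factors, 84 and 51 with total counts, and 83 and 49 with limma-voom. Leaving out 1 library at a time gave 0 to 2 of the 10 called higher and 0 to 2 lower, and over all genes 0 to 855 higher and 2 to 569 lower, with the highest counts without IGF-1 replicate 5. In these fits, 0 to 6 of the other apoptosis genes were called higher and 0 to 6 lower. With 1 control left out, the lone control is taken to vary as much as libraries of the other group. Without the filter, 385 genes were higher and 221 lower over all genes, and 1 of the other apoptosis genes was called in each direction. DESeq2 called 180 genes higher and 75 lower, and 1 of the other apoptosis genes was among those higher. DESeq2 without IGF-1 replicate 5, chosen after seeing the data, called 310 higher and 143 lower, and 3 and 3 of the other apoptosis genes. Bcl2, not called in any fit, turned to -0.02 without IGF-1 replicate 5 by edgeR and by DESeq2, and reached 0.09 without IGF-1 replicate 3. The cause of these shifts was not tested. No paired analysis was possible because the replicate numbers 1 to 5 are not shared between the groups. Depth limits Pmaip1 and Bik, at 13 counts or fewer per library.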
